A study of Mus musculus with 4 samples.

Results

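Genes that mark T cells and intraepithelial lymphocytes were followed across 4 arrays of mouse small intestine, 2 from HNF4 null animals and 2 from controls. The genes were Cd3e, Cd3g, Cd3d, Cd8a, Cd8b1, Gzma, Gzmb, Itgae, Cd7 and Ccl5, and every probe set that the platform annotation pairs with exactly 1 of these symbols was included. This gave 11 probe sets for 10 of the 12393 genes with a probe set of their own, out of 22626 probe sets left once array controls are set aside, with 2 probe sets for Cd8a and 1 for each other gene. The null group was a male and a female, both HNF4 loxP/- with villin-Cre, a transgene whose promoter is active in intestinal epithelium. The controls were a male of genotype loxP/- that lacked Cre and a female of genotype loxP/+ that carried villin-Cre. All 4 animals were 1 month old and carried a loxP allele, and each gave 1 array of total RNA. Not stated in the labels are the HNF4 gene targeted, the stretch of intestine used and any separation of epithelium from the wall. The controls differed from each other in sex, in the minus allele and in Cre at once, so these cannot be told apart.

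Intraepithelial lymphocytes are T cells that sit between the epithelial cells of the gut, many of them with the CD8 coreceptor and many with a gamma delta receptor. The CD3 gamma, delta and epsilon chains form the signalling part of the T cell receptor, CD8 is made as an alpha chain pair or as alpha with beta, and granzymes A and B are serine proteases of cytotoxic granules. Integrin alpha E, encoded by Itgae, pairs with integrin beta 7 and binds E-cadherin on epithelial cells. Ccl5 is a chemokine released by activated T cells, and Cd7 is a surface glycoprotein of T and natural killer cells. The villin promoter is known from epithelial cells, and the 10 genes are known from lymphocytes. In RNA from whole tissue, fewer cells of a type and less RNA per cell cannot be told apart.

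Enterocyte markers were bright on every array, with Fabp1 at 5753 to 6805 and Krt20 at 1643 to 2463. The brightest Hnf4a probe set read 1136 and 1025 in the null male and female, against 731 and 1141 in the control male and female. The means of all 4 Hnf4a probe sets and both Hnf4g probe sets were higher in null, by 0.084 to 0.32 on the log2 scale used below, with an adjusted p of 1 in limma for each. The part deleted is not stated, so these probe sets do not check the labels. The null male had the lowest median deposited intensity, 43.2 against 49.5 to 53.3 on the other arrays, and the lowest correlation with any other array, 0.927 with the null female. The deposited values carry no detection calls. The 6 probe sets of Y-linked genes gave −2.23 to 34.4 in the 2 females, which shows how high a probe set can read where its own transcript is missing, although some of these genes have relatives on the X chromosome. Cd3e and Cd8b1 lay within that range on all 4 arrays and are not shown to lie above background. Cd3g and Cd3d lay within it on the array of the null male alone, and the other probe sets of the set lay above it on every array. The upper end of the range came from a single Uty probe set, at 34.4 and 28.0 in the null and control female. The other Y-linked probe sets read at most 22.6 in the females. Above 22.6 lay Cd3g and Cd3d in the null male (26.7 and 24.1) and Cd3e in the control male and female (24.2 and 31.5).

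Upstream sequence is shown for the pair of CD3 genes whose values varied together most closely over the arrays and for the 2 granzyme genes, which varied otherwise. In the RefSeq tables of GRCm38.p6, which was used for names and sequence alone since the arrays carry no build, Cd3g, Cd3d and Cd3e are neighbours on chromosome 9. Cd3g and Cd3d are read in opposite directions from start sites 1355 bases apart. Of the 10 genes, 6 matched an entry of the promoter table. The 250 bases before the start of 4 of them follow, 5′ to 3′ on the strand of the gene. Capitals mark 3 short motifs searched on both strands: TGTGGT is the core bound by RUNX factors, AGGAAG is an ETS core, and AGATAA is a GATA site.
Cd3g (chr9:44980432-44980681, - strand): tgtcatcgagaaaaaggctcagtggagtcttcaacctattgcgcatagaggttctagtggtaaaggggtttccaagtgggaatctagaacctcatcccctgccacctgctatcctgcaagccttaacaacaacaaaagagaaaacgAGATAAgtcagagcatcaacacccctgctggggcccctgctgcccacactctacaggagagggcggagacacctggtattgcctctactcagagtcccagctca
Cd3d (chr9:44981536-44981785, + strand): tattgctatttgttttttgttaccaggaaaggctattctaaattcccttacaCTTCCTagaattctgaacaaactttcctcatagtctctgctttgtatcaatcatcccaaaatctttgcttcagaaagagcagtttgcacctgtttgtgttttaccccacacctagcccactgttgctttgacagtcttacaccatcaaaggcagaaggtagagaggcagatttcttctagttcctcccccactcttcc
Gzma (chr13:113100982-113101231, - strand): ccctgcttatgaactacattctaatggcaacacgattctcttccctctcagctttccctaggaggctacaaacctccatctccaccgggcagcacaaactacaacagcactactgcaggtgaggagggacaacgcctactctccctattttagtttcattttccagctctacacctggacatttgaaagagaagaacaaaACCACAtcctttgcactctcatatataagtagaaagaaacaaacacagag
Gzmb (chr14:56262335-56262584, - strand): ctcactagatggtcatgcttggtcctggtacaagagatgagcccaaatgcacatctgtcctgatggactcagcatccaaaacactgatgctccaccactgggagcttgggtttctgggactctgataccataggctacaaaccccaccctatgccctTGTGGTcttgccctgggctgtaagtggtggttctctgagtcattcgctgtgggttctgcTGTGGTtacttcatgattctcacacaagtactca
TGTGGT stood in 2 of the 6 promoters (Gzma and Gzmb), against 14.0% of the 32851 promoters in the table. AGGAAG stood in 2 (Cd3d and Cd3e), against 29.5%, and AGATAA in 1 (Cd3g), against 9.99%. CAAAGTCCA, a sequence bound by HNF4, stood in 0 of the 6 and in 0.384% of all. The marked motifs do not overlap one another. These are matches of letters in a window and not measured sites.

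The CD3 chains had lower means in the null animals, with the 2 null arrays far apart for Cd3g and Cd3d. Cd3g read 26.7 and 69.3 in the null male and female, against 61.2 and 82.0 in the control male and female. The null female lay between the 2 controls and the null male below all others, so the groups overlapped. Cd3d had the same shape, with 24.1 and 64.01 in the null male and female, against 49.8 and 72.4 in the control male and female. On the scale of log2(intensity + 16) after quantile normalization, used for all differences here, Cd3g averaged 5.94 ± 0.55 in null and 6.42 ± 0.23 in control intestine (SD, n = 2 each). Its null minus control difference was −0.48 (SE 0.32, 95% interval −1.24 to 0.28; adjusted p of 1 in limma). Cd3d differed by −0.38 (SE 0.33, 95% interval −1.16 to 0.40; adjusted p of 1 in limma). Without the null male, whose readings lay in the range of missing transcripts, the differences were −0.098 for Cd3g and 0.0012 for Cd3d, and without the null female they were −0.87 and −0.76. Cd3g and Cd3d were the closest pair among the 11 probe sets, with a root mean square distance of 0.059 between their profiles over the 4 arrays, each taken as log2 values minus their mean. The next pair, Cd3e and Itgae, stood at 0.144.

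Cd3e was dim throughout. It read 16.9 and 21.9 in the null male and female, against 24.2 and 31.5 in the control male and female. Both null arrays were below both controls, but all 4 readings fell in the range of missing transcripts. Its difference of −0.27 (5.16 ± 0.045 in null against 5.43 ± 0.17 in control, SD, n = 2 each) was not tested, since the probe set was among the dimmest 30%.

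The CD8 genes did not follow the CD3 genes in their averages. The brighter Cd8a probe set read 35.1 and 61.8 in the null male and female, against 46.8 and 61.1 in the control male and female. The groups overlapped, with a difference of −0.097 (95% interval −0.71 to 0.52; adjusted p of 1 in limma). The dimmer one read 42.7 and 44.5 in the null male and female, against 35.4 and 46.3 in the control male and female, and its difference was 0.11 (95% interval −0.47 to 0.70; adjusted p of 1 in limma). The 2 probe sets of 1 gene thus differed in sign, with intervals that each span 0 widely. The interval of the brighter probe set includes a difference as low as the one of Cd3g. The sign also turned when single arrays were left out: the brighter gave 0.095 without the null male and 0.045 without the control female, and the dimmer gave −0.021 without the control male. Cd8b1, the beta chain gene, read 15.4 and 17.8 in the null male and female, against 15.3 and 9.68 in the control male and female. Its difference of 0.24, the highest of the set, was untested and came from readings within the range of missing transcripts.

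**Figure D1:**
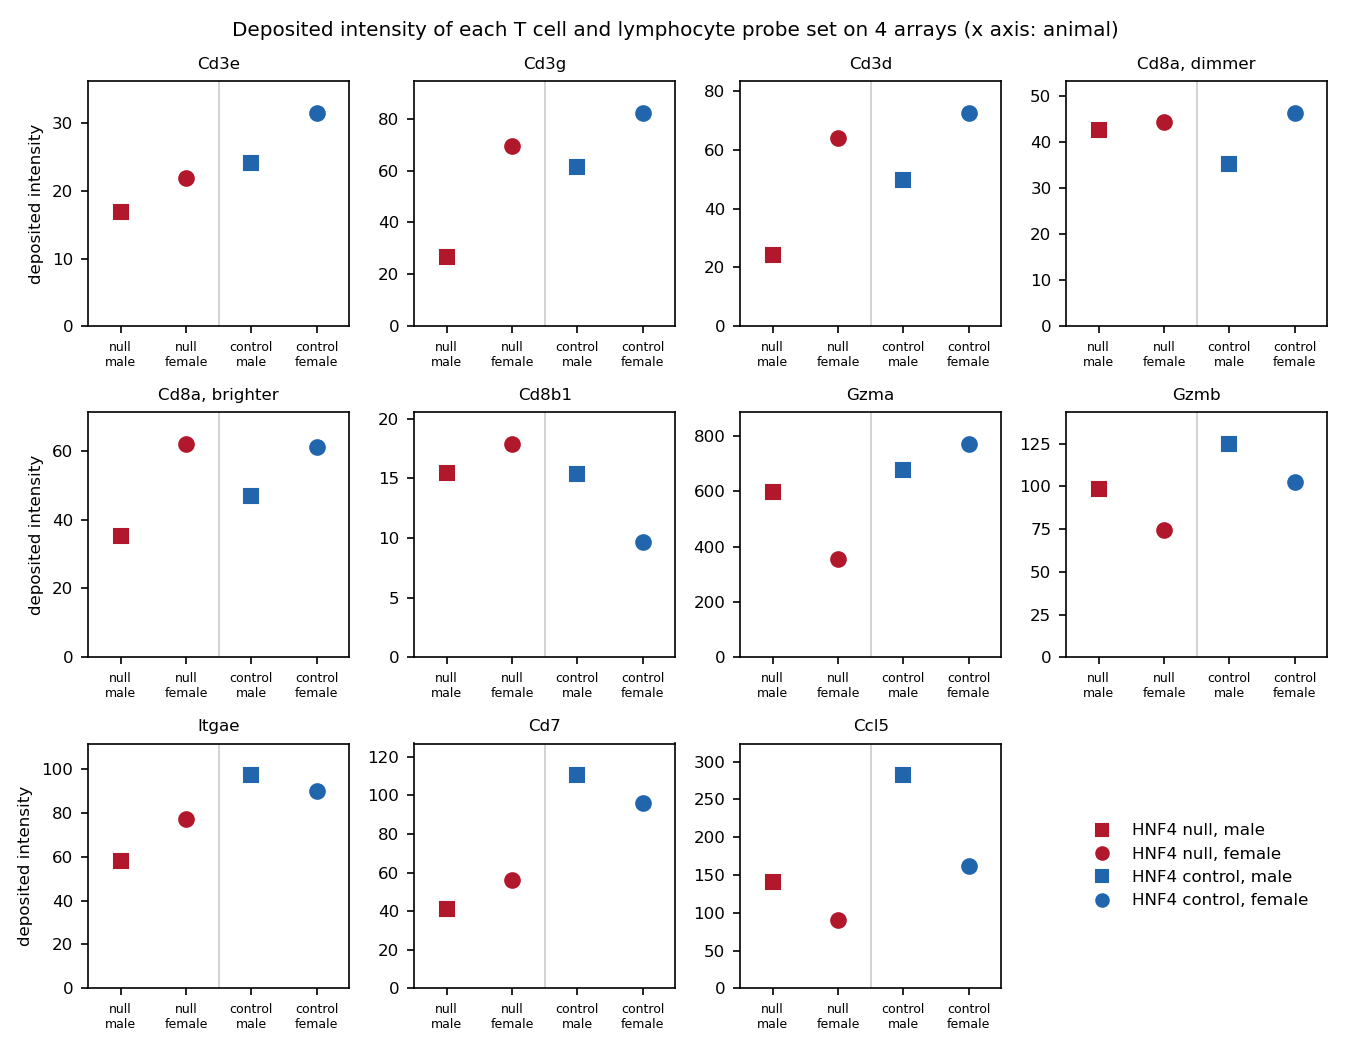
Deposited intensity (y axis, linear, from 0) of each of the 11 probe sets on the 4 arrays (x axis), with the 2 HNF4 null animals in red on the left and the 2 controls in blue on the right; squares are males and circles females. Cd7, Itgae, Gzma, Gzmb, Ccl5 and the dim Cd3e show both null animals below both controls. Cd3g and Cd3d are lowest in the null male and higher in both females than in both males.

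Gzma, Gzmb and Ccl5 were lower in both null animals than in both controls on the deposited scale, and here the null female was the lowest array. Gzma, the brightest of the set, read 596 and 354 in the null male and female, against 677 and 768 in the control male and female. The groups did not overlap. It averaged 8.89 ± 0.55 in null and 9.504 ± 0.10 in control intestine (log2, SD, n = 2 each), a difference of −0.61 (SE 0.27, 95% interval −1.25 to 0.021; adjusted p of 1 in limma). The female pair differed by −1.07 and the male pair by −0.15, and leaving out the null female or the null male gave −0.22 or −0.99. Gzmb read 98.6 and 74.2 in the null male and female, against 124 and 102 in the control male and female. After quantile normalization the null male moved between the controls, so the groups overlapped on that scale. Its difference was −0.30 (SE 0.27, 95% interval −0.95 to 0.34; adjusted p of 1 in limma), and it was −0.025 without the null female and −0.58 without the null male. Ccl5, the chemokine, read 141 and 90.7 in the null male and female, against 282 and 161 in the control male and female. The null male lay just below the control female, and the control male stood well above the rest. The difference of −0.79 (SE 0.36, 95% interval −1.65 to 0.071; adjusted p of 1 in limma) was nearly equal in the pairs, at −0.80 for the males and −0.78 for the females. In each group the female was lower than the male. It was −0.40 without the control male, −0.41 without the null female and −1.18 without the control female. When arrays were scaled to the same median instead, the groups overlapped for both Gzma and Ccl5, with differences of −0.58 and −0.77.

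Among the members above the range of missing transcripts, Cd7 and Itgae were those with 2 close null arrays below 2 close controls after normalization. Cd7 read 41.2 and 56.1 in the null male and female, against 110.3 and 96.0 in the control male and female. The highest null value was well under the lowest control. Cd7 averaged 6.03 ± 0.074 in null and 6.87 ± 0.14 in control intestine (log2, SD, n = 2 each), a difference of −0.84 (SE 0.22, 95% interval −1.38 to −0.31), which on this scale is 0.557 of the control level. It had the smallest unadjusted p of the set, 0.00736 in limma, rank 66 among the 15838 probe sets tested, with an adjusted p of 1. Males differed by −0.99 and females by −0.70. It stayed between −0.94 and −0.75 when any 1 array was left out. Itgae read 57.8 and 77.1 in the null male and female, against 97.0 and 89.7 in the control male and female. It averaged 6.40 ± 0.077 in null and 6.75 ± 0.079 in control intestine (log2, SD, n = 2 each), a difference of −0.35 (SE 0.22, 95% interval −0.87 to 0.16; adjusted p of 1 in limma). The pairs gave −0.46 in males and −0.24 in females.

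Of the 11 probe sets, 9 passed the filter on dim values and were tested, and 0 had an adjusted p under 0.05 in limma, with or without sex as a block. Over all probe sets tested, 0.0126% passed in either direction without the block (0.00631% with a lower mean in null) and 0.183% with it. An unadjusted p under 0.05 was reached by 1 member, Cd7, where 1.72% of all probe sets tested had such a p with a lower mean in null. With sex as a block these were 3 members, Ccl5 (unadjusted p = 0.00374, adjusted p = 0.397 in limma), Cd7 (0.00825, adjusted p = 0.619) and Gzma (0.0136, adjusted p = 0.719), where 2.73% of all probe sets tested had such a p with a lower mean in null. Means were lower in null for 9 of the 11 members, against 50.9% of all probe sets and 52.2% of those tested, and lower in both the male and the female pair for 9 members, against 24.6% and 25.7%. Both null arrays were below both controls for 5 members (Cd3e, Gzma, Itgae, Cd7 and Ccl5), against 15.9% of all probe sets. That count was 6 on the deposited intensities, with Gzmb added and 16.3% over all probe sets, and 3 when arrays were scaled to the same median, where Cd3e, Itgae and Cd7 were left. The median difference over the 11 was −0.35, against −0.0054 over all probe sets, and the medians of the pairs were −0.16 in males and −0.26 in females.

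**Figure D2:**
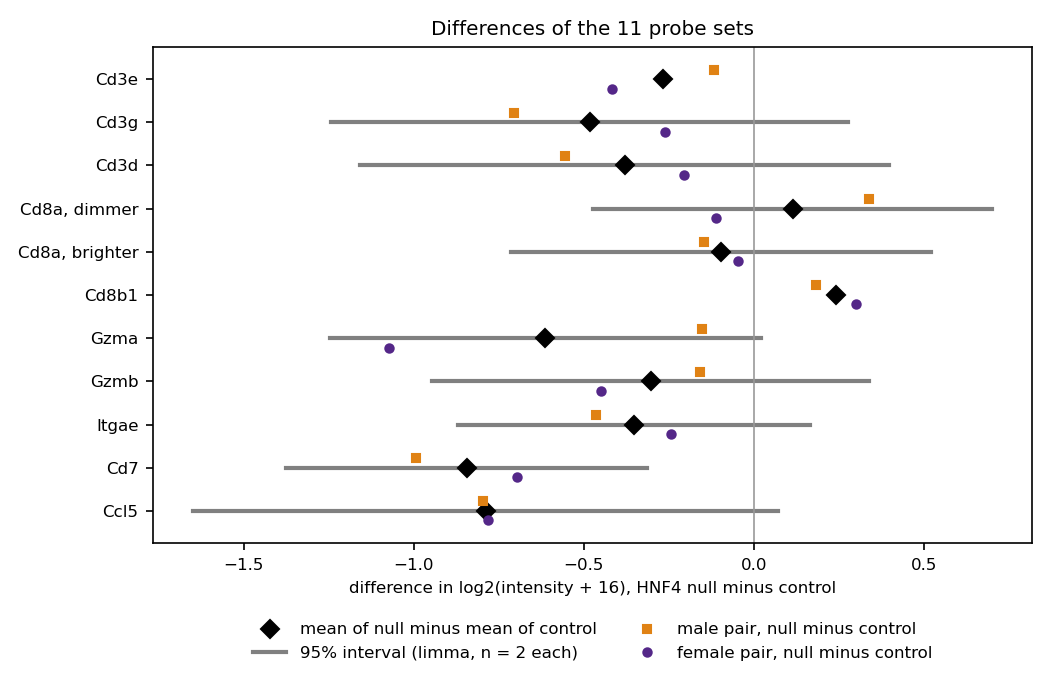
Difference in log2(intensity + 16), HNF4 null minus control (x axis), of each of the 11 probe sets (y axis), as the mean over 2 animals each (diamonds) with the 95% interval of the limma fit where tested (grey bars), and in the male pair (orange squares) and female pair (purple circles). Only the interval of Cd7 lies fully below 0, at −1.38 to −0.31, and it is not adjusted for the number of probe sets tested.

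The members did not vary as 1 block. After normalization the null male was the lowest array for 5 of the 11 probe sets, and the null female for Gzma, Gzmb, Ccl5 and Cd3e. Cd3g, Cd3d and the brighter Cd8a probe set lay above their own mean in the null female, where the granzymes and Ccl5 were low. Of the leukocyte common genes, 20 of 24 probe sets were higher in both females than in both males on the deposited scale. The same order held for 4 of the 11 members, namely Cd3g, Cd3d and both Cd8a probe sets. It also held for 12 of 20 probe sets of gut homing and adhesion and 12 of 32 of T cell signalling and surface. Ptprc, the common leukocyte antigen CD45, read 184 and 416 in the null male and female, against 205 and 440 in the control male and female, so both females were higher than both males. Its difference between the groups was −0.040 (95% interval −1.06 to 0.98). The part of such differences between animals in the values of the 10 genes was not tested.

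**Figure D3:**
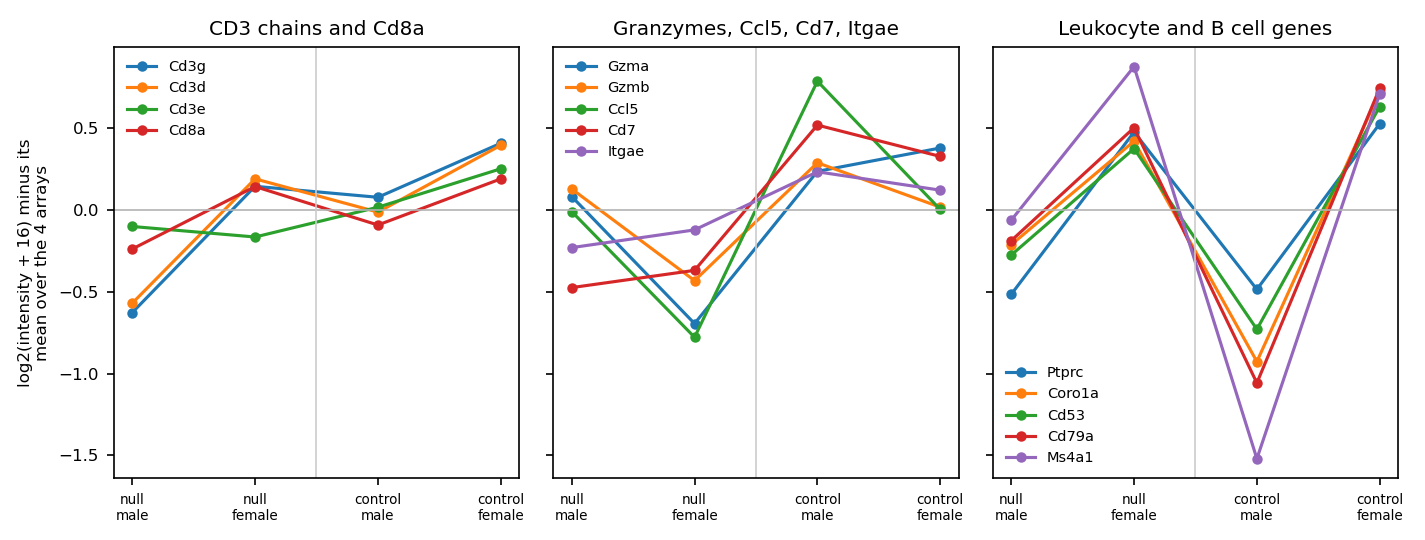
Profiles over the 4 arrays (x axis, null animals left of controls) of single genes as log2(intensity + 16) minus the mean of the gene over the 4 arrays (y axis), with the brightest probe set of each gene; lines join the points of 1 gene. Cd3g and Cd3d are lowest in the null male, and Gzma, Gzmb and Ccl5 in the null female. Ptprc, Coro1a, Cd53, Cd79a and Ms4a1 are higher in both females than in both males, as are Cd3g, Cd3d and Cd8a. B and plasma cell genes with the opposite order are not drawn.

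Further T cell genes were taken from lists, in which no probe set passed the threshold in limma and none with sex as a block. For the T cell receptor, 5 genes had 10 probe sets, of which 6 had a lower mean in null, with a median difference of −0.092 and with an unadjusted p under 0.05 for 0 of the 4 tested. Trgv4, a variable segment of the gamma chain, was lower in null on all 3 of its probe sets. The brightest read 20.8 and 35.5 in the null male and female, against 54.7 and 40.7 in the control male and female, with a difference of −0.50 (SE 0.26). Its null male reading fell in the range of missing transcripts. Another, whose suffix marks possible binding to other transcripts, differed by −0.62, and the groups did not overlap there either. All its readings but that of the control male fell in the range of missing transcripts. The last differed by −0.34 and read at most 16.01, within that range on all 4 arrays. Trgv1, another gamma segment, differed by −0.067 and Trbv1, a beta segment, by 0.052 on a probe set whose suffix marks possible binding to other transcripts. Trbv13-2 differed by −0.12, on readings of 11.8 to 29.95. The zeta chain gene Cd247 had 4 probe sets, all in the dimmest 30%, with differences of 0.29, 0.36, 0.18 and −0.25.

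Signalling and surface genes of T cells were even in direction, with 16 of 32 probe sets lower in null, a median of −0.0085 and 0 of 17 tested with an unadjusted p under 0.05. The smallest p values belonged to Thy1, a surface glycoprotein of T cells, at −0.50 (SE 0.25), the phosphatase gene Ptpn22 at −0.51 (SE 0.29), the interleukin 2 receptor gene Il2ra at −0.34 (0.11 on the other probe set, untested) and the costimulator gene Icos at −0.37 (0.395 on the other). Thy1 read 15.1 and 26.4 in the null male and female, against 37.4 and 36.5 in the control male and female. Both null readings of Thy1 fell in the range of missing transcripts. Cd4, the coreceptor of helper T cells, differed by 0.035 (95% interval −0.66 to 0.73) on the bright probe set and by 0.16 on a dim one. Of the cytotoxic and natural killer genes, 25 of 42 probe sets were lower, with a median of −0.069 and 0 of 18 tested with an unadjusted p under 0.05. Cd160, a receptor of cytotoxic lymphocytes, stood at −0.42 (0.17 and 0.049 on 2 others) and the granule gene Nkg7 at −0.24, while the chemokine gene Ccl3 stood at 0.21 and the death ligand gene Fasl at 0.23. The perforin gene Prf1 differed by −0.19 and by 0.098 on its 2 probe sets.

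T cell transcription factors had 10 of 24 probe sets lower, a median of 0.080 and 0 of 15 tested with an unadjusted p under 0.05. By the brightest probe set of each gene, the smallest p values were those of Id2 at 0.34 (0.24 and −0.16 on 2 others), Ahr at 0.28, Runx1 at 0.26 (−0.18 to 0.59 on 4 others) and Ikzf1 at −0.20. Ets1 differed by 0.65 on a dimmer probe set, which had the smallest p of the list, by 0.045 on its brightest, and by 0.12 and −0.30 on others. Genes of gut homing and adhesion had 11 of 20 lower, a median of −0.077 and 0 of 10 tested with such a p. S1pr1, the receptor for exit from tissue, stood at 0.41, and the integrin genes Itgb2 and Itgal at −0.24 and −0.19. Itgb7, the partner of integrin alpha E, differed by 0.080 (95% interval −0.51 to 0.67), next to −0.35 for Itgae. Ccr9, the receptor for the gut chemokine Ccl25, had 3 probe sets. The brightest, with a suffix for possible binding to other transcripts, read 29.9 and 82.3 in the null male and female, against 59.7 and 75.6 in the control male and female, so the null male was lowest, as for Cd3g and Cd3d. Its difference was −0.27, and the other 2 gave −0.39 and 0.32.

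Genes whose products lymphocytes meet in the epithelium and its vessels gave 13 of 27 probe sets lower, a median of 0.040 and 1 of 22 tested with an unadjusted p under 0.05. That one was Tnfrsf14, a receptor of the tumour necrosis factor family, at 0.92 (SE 0.36). Its readings were 54.4 and 50.1 in the null male and female, against 34.6 and 11.1 in the control male and female. The cytokine gene Il18 stood at 0.47, the chemokine gene Cxcl10 at 0.65 and the homing ligand gene Madcam1, which is expressed by gut vessels, at 0.43. H2-T3 was lower in null on both probe sets, at −0.19 on the brighter and −0.48 on the dimmer, whose suffix marks possible binding to other transcripts. Both null arrays were below both controls for 6 of the 27 probe sets, against 15.9% of all, and above both for 5. Cdh1, which encodes E-cadherin, read 713 and 742 in the null male and female, against 769.6 and 897 in the control male and female, a difference of −0.16 (95% interval −0.52 to 0.20). Ccl25 read 2161 and 1699 in null animals, against 2118 and 2186 in the control male and female, a difference of −0.13 (95% interval −0.43 to 0.18). Il15, a survival cytokine of these lymphocytes, differed by −0.32 (SE 0.26), with 27.6 and 43.0 in the null male and female, against 58.1 and 41.0 in the control male and female. The adjusted p in limma was 1 for each probe set named in these lists that was tested. Apart from the genes whose probe sets are all given, the value named is that of the brightest probe set, and 9 such genes, those of other cell types included, had another of the opposite sign.

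Markers of other cells varied on these arrays as well, and their part in the values of the 10 genes was not tested. In no such list did a probe set pass in limma, and over all probe sets tested 3.03% had an unadjusted p under 0.05 in either direction. Leukocyte common genes had 8 of 24 probe sets lower in null (0 of 20 tested with an unadjusted p under 0.05), with medians of 0.30 for males and −0.090 for females. Summed levels in this paragraph are normalized and take only the brightest probe set of each gene. For leukocyte common genes the sum was 1482 and 2361 in the null male and female, against 1116 and 2607 in the control male and female. B and plasma cell genes had 11 of 34 lower (0 of 24 with such a p), with medians of 0.49 and −0.11 in the male and female pairs and a summed level of 9341 to 11854 in null against 9147 to 12492 in control intestine. Igha weighs most in that sum. Myeloid genes had 7 of 27 lower (0 of 20 with such a p), with a summed level of 5377 to 5852 in null against 5218 to 5593 in control intestine. Mast cell genes had 4 of 13 lower (2 of 9 with such a p, Mcpt2 higher and a dimmer Hdc probe set lower), with 379.5 to 421 in null against 326 to 333 in control intestine. Smooth muscle genes had 4 of 19 lower (1 of 17 with such a p, Lmod1, higher), with 3430 and 4894 in the null male and female, against 3575 and 3213 in the control male and female. Enterocyte genes had 22 of 29 lower (4 lower and 1 higher, Apoa4 at 0.27, of 29 with such a p), with a summed level of 57096 to 59117 in null against 61406 to 63698 in control intestine. Both null arrays were below both controls for 11 of these 29, against 15.9% of all probe sets. In both the male and the female pair 15 of them were lower in null, against 24.6% of all. Pancreatic acinar genes had 5 of 14 lower (0 of 12 with such a p), with 719 to 1211 in null against 728 to 773 in control intestine. The 10 T cell and lymphocyte genes themselves summed to 1121 and 838 in the null male and female, against 1480.3 and 1436 in the control male and female, a sum in which Gzma weighs most. Some readings were at or below 0 on at least 1 array in the lists of leukocyte (1 probe set), myeloid (1), mast cell (1) and smooth muscle (1) genes, and in none of the other lists of this paragraph.

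Genes of these lists were ranked by the p of their brightest probe set alone, and a dimmer one could have a smaller p. The genes with the smallest p were then Rac2 at 0.46, Ptprcap at 0.37, Selplg at 0.21 and Itgb2 at −0.24 for leukocytes, and Sdc1 at −0.51 (0.16 to 0.20 on its other 3 probe sets), Cd22 at −0.70 (0.16 on the other), Ms4a1 at 0.81 and Cd79b at 0.70 for B and plasma cells. They were Cd14 at 0.83, Ctss at 0.32, Lyz2 at −0.17 and C1qa at 0.32 for myeloid cells, and Mcpt2 at 1.20, Hdc at −0.34, Kit at 0.14 and Cpa3 at 0.16 for mast cells. Smooth muscle had Lmod1 at 1.05, Des at 0.50, Tpm2 at 0.59 (−0.27 to 0.62 on 3 others) and Myl9 at 0.47, enterocytes Krt20 at −0.36, Anpep at −0.39, Fabp1 at −0.21 and Krt19 at −0.27, and acinar cells Cela3b at 0.48 (−0.074 to 0.95 on 3 others), Cpa1 at 0.475, Cela2a at 0.25 and Ctrb1 at −0.18. Of the 34 B and plasma cell probe sets, 16 were higher in both females than in both males and 8 lower in both. Ms4a1 was among the first, with 82.2 and 200.4 for Ms4a1 in the null male and female, against 23.6 and 173 in the control male and female. Jchain, the joining chain gene of plasma cells, was among the others, with 2944 and 1480.4 in the null male and female, against 3243 and 1395 in the control male and female.

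**Figure D4:**
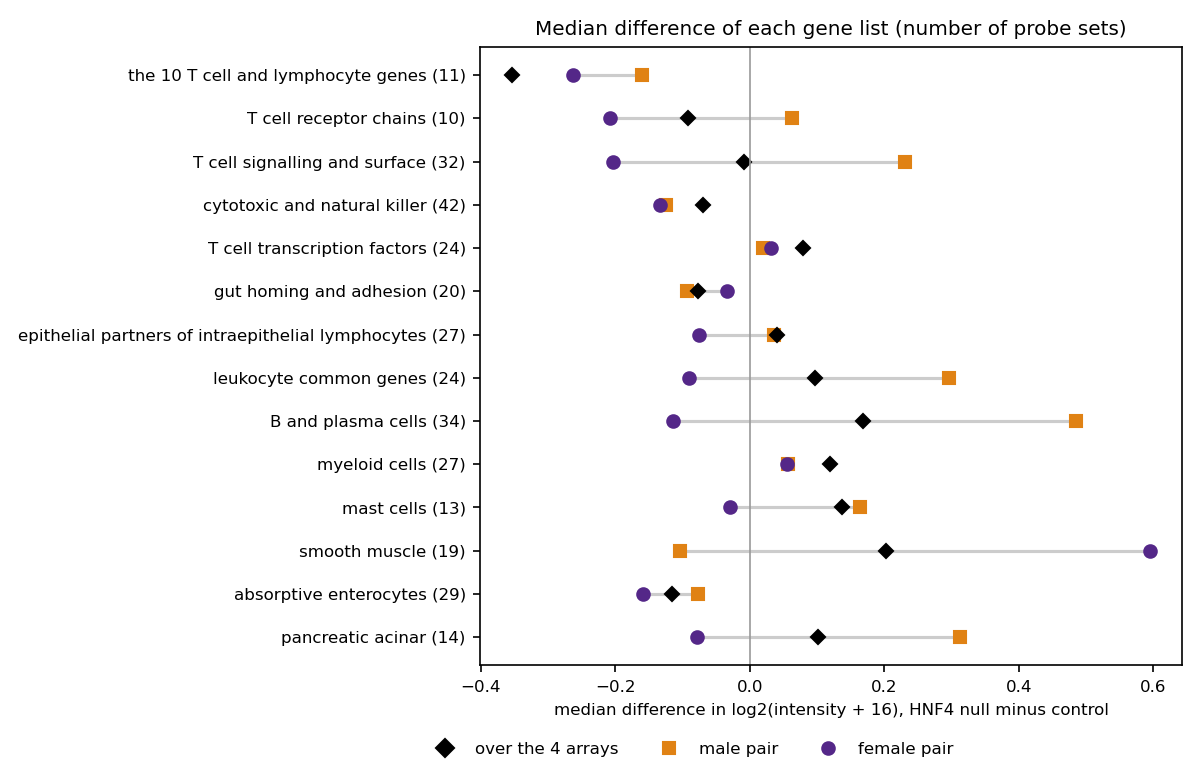
Median difference in log2(intensity + 16), HNF4 null minus control (x axis), over all probe sets of each gene list (y axis, number of probe sets in brackets), over the 4 arrays (diamonds), in the male pair (squares) and in the female pair (circles). The 10 T cell and lymphocyte genes stand at −0.35, −0.16 and −0.26, and the leukocyte and B cell lists have medians above 0 in the male pair and below 0 in the female pair. So do the lists of T cell receptor chains, T cell signalling and surface, epithelial partners, mast cells and pancreatic acinar genes. Like the 10 genes, the cytotoxic and natural killer, gut homing and adhesion, and enterocyte lists have medians below 0 in both pairs.

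Among the 14417 other single-gene probe sets tested, those with profiles nearest to the median profile of the 9 tested members over the 4 arrays were Atg14, Acaa2, Mrpl15, Pigc and Cask. Their root mean square distances were 0.019, 0.023, 0.027, 0.031 and 0.031 on the log2 scale. Acaa2, a mitochondrial thiolase, read 966 and 1069 in the null male and female, against 1406 and 1331 in the control male and female. In all, 510 probe sets lay within 0.1 of that profile, and the members themselves lay 0.034 (Itgae) to 0.45 (Ccl5) from it, so 4 arrays set few genes apart by likeness.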

How the data were processed

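RNA from 4 small intestines, 2 HNF4 null and 2 control, was measured on Affymetrix arrays. Each probe set has 1 linear intensity on every array, already summarised by the authors before it was deposited. RNA was isolated with a Qiagen kit and labelled with biotin, per the labels' protocols. How the intensities were summarised, background corrected and scaled is not given in the sources used here. Groups came from the sample titles, and each animal is 1 replicate.

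Here, quantile normalization came first, values below 0 became 0, and log2 was taken after a pseudocount of 16, so folds of dim probe sets are understated. With the dimmest 30% by mean removed, 15838 probe sets remained for limma 3.58.1 under R 4.3.3 (lmFit, eBayes with an intensity trend, two-sided, Benjamini-Hochberg over all tested, threshold 0.05), after a test on simulated data. Residual degrees of freedom were 2 and prior ones 4.65, and the number of arrays limits the precision. Probe sets were named from the platform annotation, and all 10 symbols matched by Entrez identifier. In each list other than the 10 genes, the 4 genes with the smallest p were named from the brightest probe set that was tested, besides Ptprc, Cd247, Cd4, Itgb7, Ccr9, Ccl25, Cdh1, Il15, Prf1 and the receptor chains (Lck was not analysed here). Ets1 and H2-T3 were named as well, for a small p on a probe set that was not the brightest of the gene. The members and lists were chosen with earlier results of these data known. Itgb2, Cdh1 and Epcam stand in 2 lists each. Alternatives covered pseudocounts of 1 and 64, no filter and a 50% filter, no scaling and median scaling, sex as a block, no trend and leaving out each animal.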

Additional observations from a re-analysis of the deposited data

Results flagged for a closer look

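Results are given here where the male and the female pair had opposite signs in null minus control log2 difference. Each pair holds 1 animal of each group, so the difference between the sexes was not tested, and a change of sign is common when differences are small. The control was loxP/- without Cre in the male pair and loxP/+ with Cre in the female pair. Sex and control genotype therefore cannot be told apart in the pairs. Among the 11 probe sets of the T cell and lymphocyte genes, only the dimmer Cd8a probe set did so, at 0.34 for males and −0.11 for females.

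Among the other T cell genes named, the T cell receptor segments Trgv1 (−0.18 in the male pair, 0.048 in the female pair), Trbv1 (0.42 and −0.32, in that order) and Trbv13-2 (0.37 and −0.61) did so. The zeta chain gene Cd247 did so on 2 of its probe sets, with −0.039 and 0.40 on one and 0.21 and −0.70 on the other. Cd4 gave 0.54 for males and −0.46 for females on its brighter probe set, and 0.35 and −0.019 on the dimmer. For Ccl3 the values were 0.43 and −0.0091, for Fasl 0.53 and −0.081, and for the dimmer Prf1 probe set 0.36 and −0.16. Ahr gave −0.027 and 0.59, Ikzf1 0.044 and −0.45, Itgb2 −0.51 and 0.043, and Itgb7 −0.077 and 0.24. Ccr9 gave −0.57 and 0.039 on its brightest probe set and 0.68 and −0.041 on its dimmest. Ccl25 gave 0.036 for males and −0.29 for females.

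Among markers of other cells, male pair before female pair, Ptprcap gave 0.80 and −0.064, Cd22 0.32 and −1.72, Kit 0.30 and −0.030, Cpa3 0.33 and −0.0093, Tpm2 −0.10 and 1.28, Myl9 −0.34 and 1.28, Cpa1 1.03 and −0.075, and Ctrb1 0.019 and −0.38. List medians of opposite sign, in the same order, were those of T cell receptor chains (0.063 and −0.21), T cell signalling and surface (0.23 and −0.20), epithelial partners (0.036 and −0.075), leukocyte common genes (0.30 and −0.090), B and plasma cells (0.49 and −0.11), mast cells (0.16 and −0.030), smooth muscle (−0.10 and 0.60) and pancreatic acinar genes (0.31 and −0.079).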

How the results depend on the processing

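No member passed the threshold under any of the 12 alternatives, and 9 of 11 probe sets had a lower mean in null under each of the 8 that kept all 4 arrays. The median difference of −0.35 was −0.43 with a pseudocount of 1 and −0.21 with 64, and −0.386 to −0.288 when any 1 animal was left out. The count of 5 probe sets with null below control was 3 when arrays were scaled to the same median. It was 6 to 8 when any 1 animal was left out, where fewer arrays make it easier for groups to part, as 29.1% to 40.1% of all probe sets then did. Signs turned for Cd3d without the null male (0.0012, in a range of −0.764 to 0.0012 over animals left out), for the brighter Cd8a probe set without the null male (0.095) and without the control female (0.045; range −0.288 to 0.095), and for the dimmer without the control male (−0.021; range −0.021 to 0.247). Without the null male, 1 probe set each of the B and plasma cell and the mast cell list passed the threshold; no other list count did so under any alternative. The lowest adjusted p of any member under any alternative in limma was 0.148, for Gzma without the null male. The groups share no animal number, though numbers run consecutively within each sex. The paired analysis, with sex as a block (1 null and 1 control animal of each sex, with control genotypes that differ between the sexes), changed no member's call. With 1 array left out, the lone array of its group was assumed to vary like the other group. Readings of Cd3e and Cd8b1 near those of missing transcripts limit what they show.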
